A study of Mus musculus with 15 samples.

Results

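The kallikrein-related peptidases Klk5, Klk6, Klk7, Klk8, Klk9, Klk10, Klk11, Klk12, Klk13 and Klk14 are the serine proteases of the kallikrein family that are best known from epidermis, and their RNA was followed here in mouse skin. They were taken by gene name, and all 10 names were found among the 54532 genes of the deposited skin table. Bulk RNA sequencing of skin had been done in 4 groups of 3 libraries each. These were skin of mice labelled Trpv3 knockout after MC903 for 7 days, wild type skin after MC903 for 7 days, untreated skin labelled Trpv3 knockout and untreated wild type skin. MC903, or calcipotriol, is an analogue of vitamin D widely used on mouse skin to bring about an inflammation resembling atopic dermatitis. Trpv3 encodes a warmth-sensitive cation channel of keratinocytes, and the title of the series places it in a pathway with the protease-activated receptor PAR2 and the cytokine IL-33.

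The series speaks of conditional knockouts, but the labels name neither an allele nor a Cre driver nor the cells concerned. Vehicle, age, sex, skin site and batch are not named either, and it is not stated that the libraries of one group are of different mice. The p-values therefore measure only the spread between these libraries. Trpv3 itself had 6.82, 6.78 and 4.73 FPKM in KO-labelled skin after MC903 and 16.1, 17.0 and 19.0 FPKM in wild type skin after MC903. In untreated skin it had 3.17, 3.64 and 2.62 FPKM under the knockout label and 2.06, 2.71 and 1.13 FPKM in wild type. Its level was lower under the knockout label after MC903 (log2 fold change -1.45 ± 0.22, SE, limma adjusted p = 0.00032). In untreated skin the values under that label were not lower (0.61 ± 0.22, limma adjusted p = 0.10). A sum over all exons does not show whether part of a gene is missing, so the genotype is given throughout as the label has it.

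Kallikrein-related peptidases are secreted as inactive precursors by keratinocytes of the upper epidermis and are activated outside the cell. Klk5, a trypsin-like enzyme, can activate itself and other members, and Klk5 and the chymotrypsin-like Klk7 cleave the proteins of corneodesmosomes, the junctions that must be cut before dead cells are shed. The inhibitor LEKTI, encoded by Spink5, restrains them, and its loss in human causes Netherton syndrome, with excessive shedding and allergic inflammation. Human KLK5, KLK6 and KLK14 can cut and activate PAR2 (F2rl1), which is why these proteases are of interest beside a pathway that includes that receptor.

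The 10 genes lie side by side on chromosome 7 in the order Klk14, Klk13, Klk12, Klk11, Klk10, Klk9, Klk8, Klk7, Klk6 and Klk5, all protein coding and all on the plus strand. They span 161 kb of mm10, from 43690418, the start of Klk14, to 43851181, the end of Klk5. Klk5 (ENSMUSG00000074155) occupies 43841971 to 43851181, Klk6 (ENSMUSG00000050063) 43824499 to 43832030 and Klk7 (ENSMUSG00000030713) 43811294 to 43816359. The antisense gene 2310002F09Rik runs from Klk14 to Klk8 on the other strand. It shares 333 of the 1536 stretches of 50 bases in the Klk8 transcripts, which is 21.7%. Reads were counted without strand, so reads of Klk8 and of this gene cannot be told apart there. The antisense gene had a mean of 0.379, 0.864, 0.277 and 0.326 FPKM in KO-labelled MC903, wild type MC903, KO-labelled untreated and wild type untreated skin, against 13.4 to 277 for Klk8. It was called higher after MC903 in wild type skin (0.73 ± 0.17, limma adjusted p = 0.0031). After MC903 it was called lower under the knockout label (-0.64 ± 0.17, limma adjusted p = 0.0092). Klk8 and Klk14 had the same directions in these comparisons. Klk14 shares 246 of 1172 such stretches with 106 other genes, 240 of them with this antisense gene. Its own mean, 0.0401 to 1.15 FPKM over the groups, is of the same size as that of the antisense gene, so the low counts of Klk14 are uncertain. The other 8 members share none.

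The sequences around 4 RefSeq gene starts are given because their genes mark the ends of the pattern described here. Klk5 was higher in one genotype and lower in the other after MC903, Klk6 had one of the largest fold changes, and Klk10 alone had overlapping genotypes after MC903. Each is the window from 250 bases before to 50 bases after a start, from RefSeq on GRCm38.p6, plus strand, 5′ to 3′. Klk5 stands at chr7:43842019-43842318, Klk6 at 2 starts, chr7:43824294-43824593 and chr7:43825200-43825499, and Klk10 at chr7:43780804-43781103. The Klk5 window lies wholly after the deposited start of that gene, 43841971, so it holds no sequence upstream of that start. Capitals mark GGGCGG, the core of a GC box, on either strand (CCGCCC when read on this strand), and TTAAAA, a variant of the TATA box.
Klk5: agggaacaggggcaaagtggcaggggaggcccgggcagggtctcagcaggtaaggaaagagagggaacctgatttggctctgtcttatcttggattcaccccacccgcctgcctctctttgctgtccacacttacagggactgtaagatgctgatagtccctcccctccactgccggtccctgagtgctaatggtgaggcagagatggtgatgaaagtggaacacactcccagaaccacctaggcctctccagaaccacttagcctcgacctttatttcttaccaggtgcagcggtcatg
Klk6, upstream start: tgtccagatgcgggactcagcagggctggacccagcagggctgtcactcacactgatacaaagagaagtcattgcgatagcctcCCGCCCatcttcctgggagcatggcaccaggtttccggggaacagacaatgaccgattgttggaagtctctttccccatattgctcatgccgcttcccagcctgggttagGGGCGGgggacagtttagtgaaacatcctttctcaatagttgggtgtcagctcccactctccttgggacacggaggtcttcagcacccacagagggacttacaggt
Klk6, downstream start: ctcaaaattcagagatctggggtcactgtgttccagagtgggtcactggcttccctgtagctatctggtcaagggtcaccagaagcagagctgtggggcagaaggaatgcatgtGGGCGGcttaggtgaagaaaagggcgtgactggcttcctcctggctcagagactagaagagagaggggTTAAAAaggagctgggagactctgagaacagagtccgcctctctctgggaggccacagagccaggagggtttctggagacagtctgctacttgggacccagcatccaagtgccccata
Klk10: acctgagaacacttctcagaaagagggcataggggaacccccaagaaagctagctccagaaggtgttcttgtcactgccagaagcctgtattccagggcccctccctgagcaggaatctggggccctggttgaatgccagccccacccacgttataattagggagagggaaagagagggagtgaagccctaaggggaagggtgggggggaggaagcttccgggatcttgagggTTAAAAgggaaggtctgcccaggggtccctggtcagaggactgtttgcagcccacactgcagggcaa

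RefSeq gave 12 such windows for the 10 members, with 2 each for Klk6 and Klk11. Its starts can differ from the deposited ones. The Klk12 window, from 43768850 to 43769149, lies mostly after the deposited start of that gene, 43768897. Motifs were searched on both strands. The TATA box TATAAA was in none of the 12 and in 13.6% of 32851 mouse promoters of the same length. The AP-1 site TGANTCA was in none of the 12 and in 7.81% of all promoters. The letters AGGTCA, bound by the vitamin D receptor and related receptors, were likewise in none of the 12 and in 16.3% of all promoters. GGGCGG stood in 5 windows of 4 members (Klk6, Klk7, Klk8 and Klk9), against 35.7% of all promoters, and TTAAAA in 4 windows of 4 members (Klk6, Klk8, Klk10 and Klk11), against 19.2%. These last 2 motifs were added after the sequences had been seen. In the Klk10 window TTAAAA begins 17 bases before the RefSeq start. The Klk5 window, which lies inside the gene as deposited, holds none of the 5 motifs. The matches describe letters in these windows and nothing about binding.

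Values are FPKM as deposited, that is, fragments scaled by gene length and a factor per library, so levels of different genes can be set beside each other. That factor was not the number of recovered reads alone. It was 0.917, 0.964 and 0.945 times that number in wild type MC903 skin and 1.11, 1.11 and 1.06 times in untreated wild type skin. How it was derived is not given. The 12 libraries held 16869716 to 18485698 reads, recovered from FPKM and gene length, and a single read per kilobase corresponded to 0.0496 to 0.0615 FPKM. A gene was tested when it reached 0.5 FPKM in at least 3 libraries, and 17646 genes did. Of the members, 8 reached this in untreated libraries alone. Klk12 and Klk14 passed only through their MC903 libraries, where they are high, so their rise with MC903 is partly fixed by the filter, and counts and medians are given over the other 8. The test was limma on log2(FPKM + 0.5) over all 4 groups, with p-values adjusted over all 17646 genes within each comparison and called at 0.05. The added 0.5 pulls fold changes of low genes, such as Klk12 and Klk14, towards 0. Each group enters several comparisons, so these share libraries and are not independent of each other. Replicate 3 of untreated wild type skin had the lowest value of its group for 8 of the 10 members, so values without it are given where it enters.

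In all 4 groups Klk7 was the most abundant member. It had 646, 777 and 537 FPKM in KO-labelled MC903 skin and 999.7, 917 and 1337 FPKM in wild type MC903 skin. In untreated skin it had 150.1, 166 and 136 FPKM under the knockout label and 105, 82.1 and 49.2 FPKM in wild type. The 4 groups did not overlap, and wild type skin after MC903 was the highest and untreated wild type skin the lowest. The same order of the 4 group means held for Klk6, Klk8, Klk9, Klk10, Klk11, Klk12, Klk13 and Klk14. Klk5 had another order, with KO-labelled skin after MC903 below KO-labelled untreated skin.

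After MC903 the wild type order of mean levels was Klk7, Klk6, Klk9, Klk13, Klk8, Klk10, Klk11, Klk5, Klk12 and Klk14, and of these neighbours only Klk13 and Klk8 overlapped. In KO-labelled skin after MC903 Klk7 and Klk6 again led, Klk9, Klk10 and Klk13 overlapped in turn, and Klk5 overlapped with Klk12. In untreated KO-labelled skin Klk7 was followed by Klk10, Klk5 and Klk8, and only Klk11 and Klk9 overlapped. In untreated wild type skin Klk7 was followed by Klk5 and Klk10, which overlapped, while Klk6, Klk13, Klk12 and Klk14 closed the order, each overlapping with the next.

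**Figure D1:**
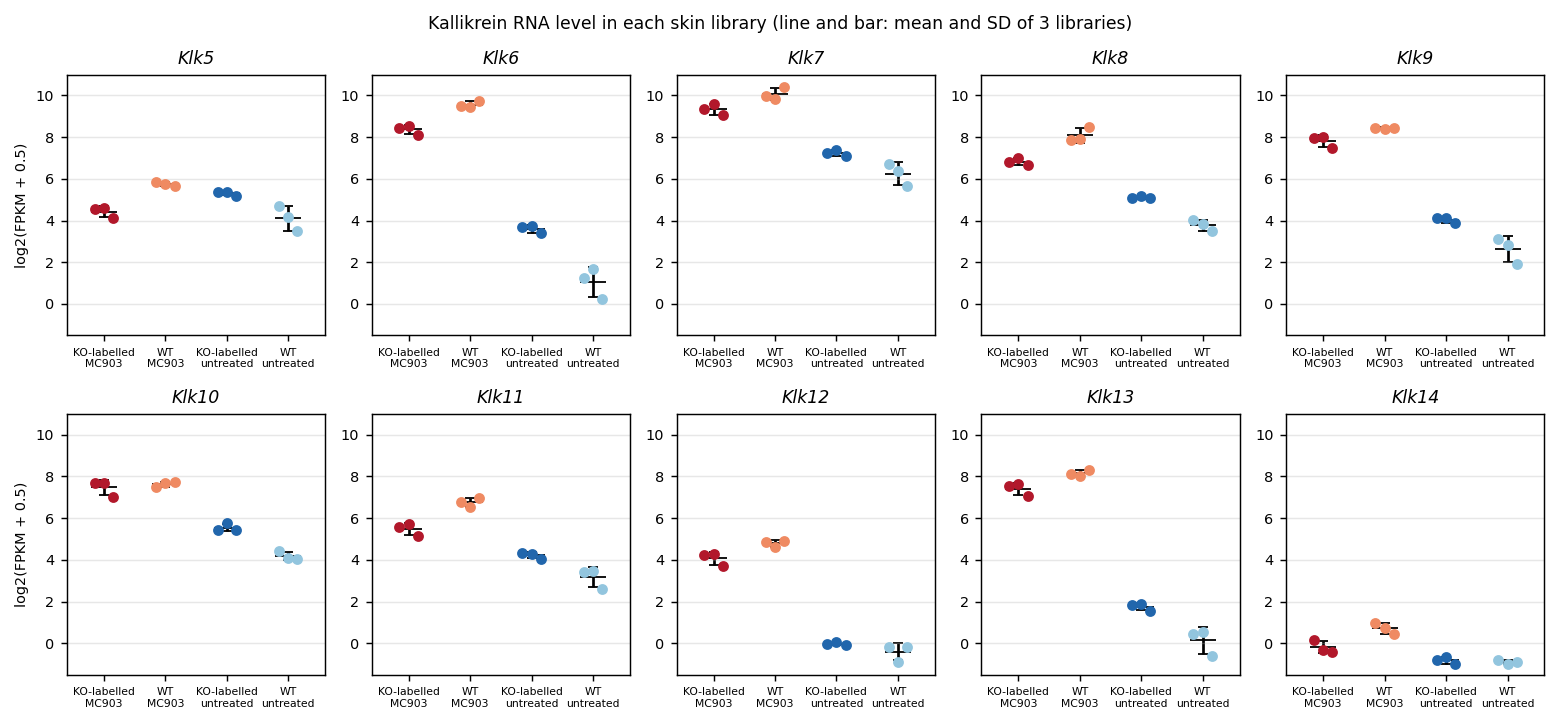
RNA level of each kallikrein, as log2(FPKM + 0.5), in each of the 12 skin libraries (points), with the mean and SD of the 3 libraries of a group (line and bar). Klk6 and Klk13 spanned the widest range, Klk14 the lowest levels, and in Klk5 KO-labelled MC903 skin lay below untreated KO-labelled skin.

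Summed over the 10 members, RNA came to 1839, 2025 and 1423 FPKM in KO-labelled MC903 skin and 2958, 2814 and 3626 FPKM in wild type MC903 skin. The sum in untreated skin was 319, 349 and 291 FPKM under the knockout label and 189, 151 and 96.8 FPKM in wild type. The genotypes did not overlap in either state, but the KO-labelled sum was the lower one after MC903 and the higher one in untreated skin. The make-up of the sum was another one after MC903 than in untreated skin, in both genotypes, and is described without a test. Klk7 took 37.1% and 34.4% of it in KO-labelled and wild type MC903 skin, and 47.1% and 53.7% in KO-labelled and wild type untreated skin (means of 3). Klk6 took 19.0% and 24.1% after MC903, in KO-labelled and wild type skin, and 3.64% and 1.16% in untreated skin of the same genotypes. The share of Klk5, the activating enzyme, was 1.16% to 1.26% over the KO-labelled and 1.39% to 1.96% over the wild type MC903 libraries. Over the untreated libraries it was 11.8% to 12.7% under the knockout label and 11.2% to 13.3% in wild type. Klk10 took 10.2% of the sum in KO-labelled MC903 skin, against 6.35% in wild type MC903 skin.

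**Figure D2:**
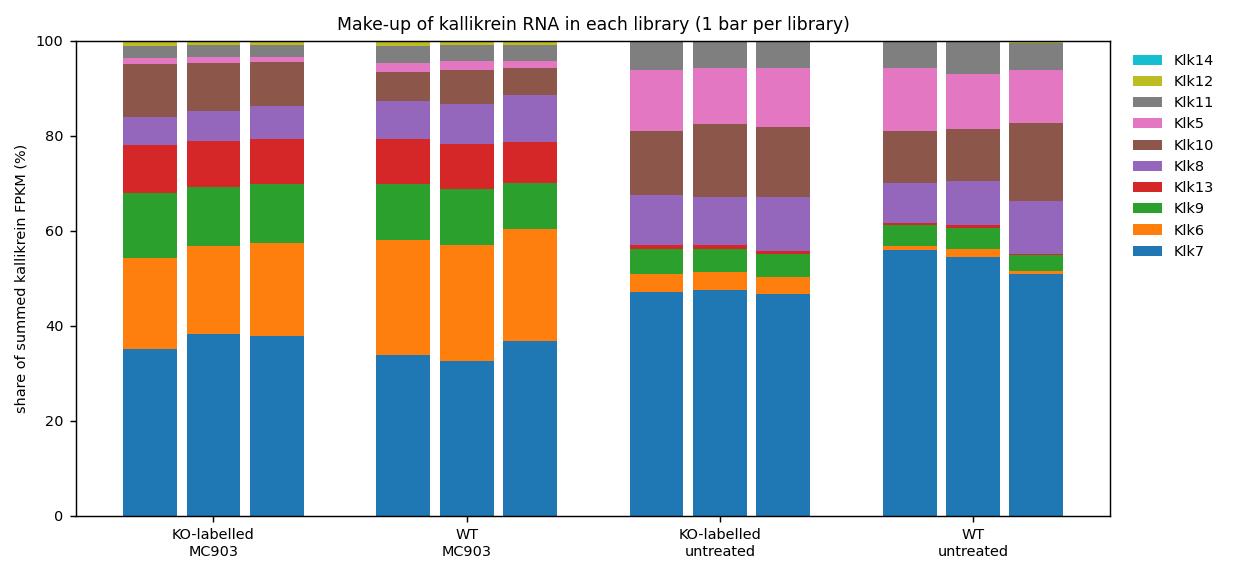
Share of each kallikrein in the summed kallikrein FPKM (percent, stacked), 1 bar per library in 4 groups. Klk6, Klk9 and Klk13 took larger and Klk5 and Klk7 smaller shares in the MC903 libraries than in the untreated ones.

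Treated skin was set against untreated skin of wild type mice, where no knockout is labelled. No vehicle or batch is named, so MC903 itself cannot be told apart from solvent, handling or batch. The 8 members that passed in untreated libraries all rose, by log2 fold changes of 1.66 to 8.50 with a median of 4.06, against a median of 0.023 over all genes tested. Of all genes tested 63% were called, 32.6% higher and 30.3% lower, so a rise was common, and 8 of 8 members stood beside that share. Klk12 and Klk14 were called higher too, with the limit given above. Treated libraries lay above all untreated ones for each of the 8 and for 33% of all genes. The largest changes were those of Klk6 and Klk13.

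Klk6, known as neurosin and abundant in the central nervous system, had 718, 690 and 854 FPKM in wild type skin after MC903 and 1.86, 2.69 and 0.691 FPKM in untreated wild type skin. Its mean was 432-fold higher after MC903 (log2 fold change 8.50 ± 0.28, limma adjusted p = 4.3e-09). Klk13 had 281, 263 and 314 FPKM after MC903 and 0.875, 0.971 and 0.159 FPKM in untreated wild type skin, a 427-fold higher mean (8.02 ± 0.26, limma adjusted p = 3.9e-09). These genes were near the bottom of the order in untreated wild type skin and among the 4 highest after MC903.

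Klk12 had 28.6, 23.8 and 29.8 FPKM after MC903, against 0.378, 0.0415 and 0.394 FPKM in untreated wild type skin, which were 9, 1 and 9 reads. Its log2 fold change was 5.21 ± 0.20 (limma adjusted p = 1.1e-08). Klk9 had 349.5, 331 and 347 FPKM after MC903 and 8.24, 6.68 and 3.29 FPKM in untreated wild type skin (5.79 ± 0.25, limma adjusted p = 2.3e-08). In every one of these genes the libraries of the 2 groups lay far apart.

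Klk7, the corneodesmosome-cleaving member, rose 13.7-fold (3.82 ± 0.25, limma adjusted p = 3.3e-07). Klk8, also called neuropsin, had 235, 237 and 359 FPKM after MC903, against 15.6, 13.8 and 10.8 FPKM in untreated wild type skin (4.31 ± 0.17, limma adjusted p = 1.3e-08). Klk10 and Klk11 rose 11.1-fold and 12.3-fold. Klk5 rose least of these. It had 58.0, 53.9 and 50.4 FPKM after MC903 and 25.1, 17.4 and 10.8 FPKM in untreated wild type skin (3.04-fold, 1.66 ± 0.24, limma adjusted p = 0.000103). Klk14 rested on 31, 24 and 18 reads after MC903 and 2, 0 and 1 reads in untreated wild type skin. Its read rate was 28.9 times as high (95% exact Clopper-Pearson interval 9.52 to 144, counting error only), while its log2 fold change of 1.60 is held down by the added 0.5. Without untreated replicate 3 the rises were still called, with log2 fold changes of 1.35 (Klk5) to 8.10 (Klk6), beside 63.9% of all genes called.

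Markers of other epidermal states moved with them. The 4 keratins of stressed or wounded epidermis all rose, summing to 11297 to 14643 FPKM after MC903 and 58.8 to 106 FPKM in untreated wild type skin. Of 6 granular layer markers 5 rose, with sums of 964 to 1660 FPKM after MC903 and 249 to 446 FPKM in untreated wild type skin, and all 5 fibroblast markers fell. Both tested neutrophil markers rose, with sums over the list of 11.9 to 18.7 FPKM after MC903 and 1.06 to 1.29 FPKM in untreated wild type skin. Of 4 leukocyte markers 0 rose and 2 fell, with sums of 279 to 337 FPKM after MC903 and 401 to 543 FPKM in untreated wild type skin. Lyz2, one of the 2 that fell, made up most of these sums, at 246 to 308 and 368 to 500 FPKM. All 4 sebaceous, all 4 adipocyte and all 4 Schwann cell markers fell. No epidermal marker was at 0 in all libraries of a group. The part of these shifts in the kallikrein changes was not tested, and in whole skin fewer cells of a type and less RNA per cell cannot be told apart.

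In KO-labelled skin 7 of the 8 members that passed in untreated libraries rose after MC903 and 1, Klk5, fell. Their median log2 fold change was 2.01, against -0.0014 over all genes tested. Of all genes tested 47.9% were called, 25% higher and 23% lower. Klk12 and Klk14 were called higher as well, again with the limit of the filter. Libraries did not overlap for any of the 8, and among all genes 32% had the treated libraries above and 31% below.

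Klk5 had 23.1, 23.4 and 16.8 FPKM in KO-labelled skin after MC903 and 40.6, 41.2 and 36.2 FPKM in untreated KO-labelled skin. Every treated library lay below every untreated one, and the mean was 1.87-fold lower after MC903 (log2 fold change -0.90 ± 0.24, limma adjusted p = 0.0093). The fall was called in each of 22 alternative settings, with limma adjusted p of 0.00071 to 0.039. In wild type skin the same gene had risen.

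Klk13 and Klk6 were again among the members with large rises. Klk13 had 186, 195 and 134 FPKM in KO-labelled skin after MC903 and 3.05, 3.22 and 2.43 FPKM in untreated KO-labelled skin (59.2-fold, 5.65 ± 0.26, limma adjusted p = 9.7e-08). Klk6 had 350.3, 372 and 278 FPKM after MC903 and 12.3, 12.9 and 9.90 FPKM in untreated KO-labelled skin (28.6-fold, 4.77 ± 0.28, limma adjusted p = 5.7e-07). Their untreated levels were not as close to 0 as in wild type skin.

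Klk12 had 18.2, 18.8 and 12.7 FPKM after MC903 and 0.471, 0.526 and 0.449 FPKM in untreated KO-labelled skin (4.10 ± 0.20, limma adjusted p = 1.2e-07). Klk9 rose 14.4-fold (3.79 ± 0.25, limma adjusted p = 1.2e-06). Klk7, Klk8, Klk10 and Klk11 rose 2.45-fold to 4.33-fold, with limma adjusted p of 1.2e-05 to 0.00093. The rise of Klk14 was the least certain. It had 14, 7 and 6 reads after MC903 and 2, 3 and 0 reads in untreated KO-labelled skin, a read rate 5.65 times as high (95% exact interval 2.14 to 18.8, counting error only). Its call (0.63 ± 0.20, limma adjusted p = 0.024) ended when MC903 replicate 1 (0.10), untreated replicate 1 (0.052) or untreated replicate 3 (0.083, all limma adjusted p) of this genotype was left out.

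The 4 stress keratins rose here too, summing to 3069 to 4475 FPKM after MC903 and 110.2 to 184 FPKM in untreated KO-labelled skin. Granular markers were divided, with 3 of 6 higher and 2 lower and sums of 322 to 536 FPKM after MC903 and 846 to 1015 FPKM in untreated KO-labelled skin. Lor, one of the 2 lower markers, made up most of the untreated sums, at 749 to 890 FPKM. Of 4 leukocyte markers 3 rose, with sums of 674 to 1071 FPKM after MC903 and 474 to 517 FPKM in untreated KO-labelled skin. Lyz2 again made up most of these sums, at 581 to 952 and 435 to 475 FPKM. Both tested neutrophil markers rose, with sums over the list of 49.6 to 71.6 FPKM after MC903 and 2.13 to 3.57 FPKM in untreated KO-labelled skin. All 4 muscle markers fell, with sums of 389 to 620 FPKM after MC903 and 1215 to 1657 FPKM in untreated KO-labelled skin, and so did 3 of 5 fibroblast markers. The part of these shifts in the kallikrein changes was not tested.

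**Figure D3:**
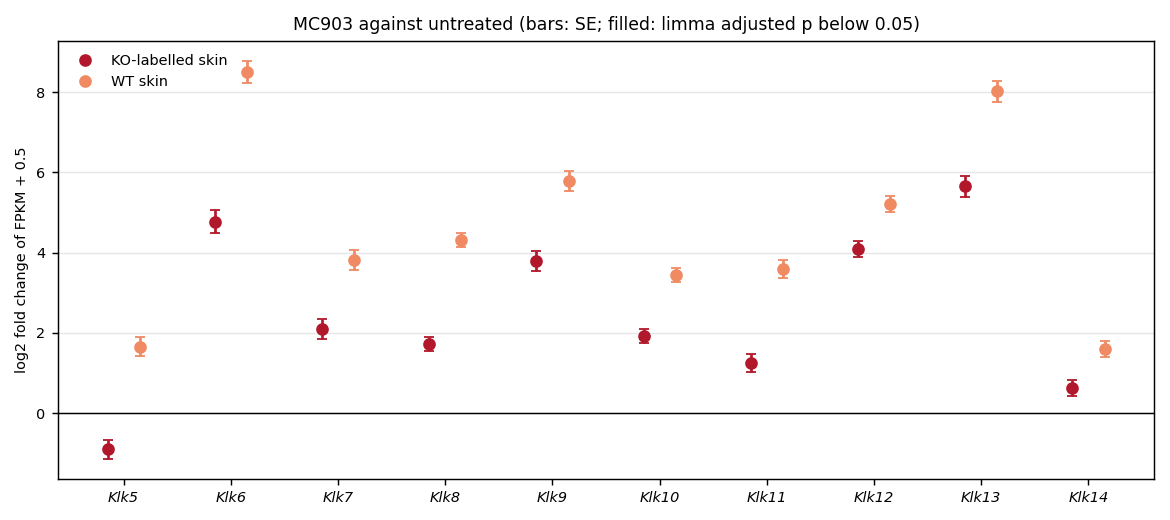
Log2 fold change of FPKM + 0.5 after MC903 against untreated skin for each kallikrein, with bars of 1 SE, in KO-labelled skin and in wild type skin. The wild type value was the higher one for all 10 genes, and Klk5 alone had a negative value, -0.90, in KO-labelled skin.

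In untreated skin the knockout label went with higher levels. The 8 members that passed in untreated libraries were all higher in KO-labelled skin, and Klk12 and Klk14 were not called. The median log2 difference of the 8 was 1.34, against 0.0097 over all genes tested. This contrast called fewer genes than the others: 11.7% of all genes tested were called, 7.15% higher and 4.55% lower. Groups did not overlap, with KO-labelled libraries above, for the 8 and Klk12, and for 16.9% of all genes tested.

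Klk6 differed most. It had 12.3, 12.9 and 9.90 FPKM in untreated KO-labelled skin and 1.86, 2.69 and 0.691 FPKM in untreated wild type skin, a 6.69-fold higher mean (log2 fold change 2.54 ± 0.28, limma adjusted p = 0.00095). Klk13 had 3.05, 3.22 and 2.43 FPKM under the knockout label and 0.875, 0.971 and 0.159 FPKM in wild type (4.34-fold, 1.62 ± 0.26, limma adjusted p = 0.0049). For both genes all KO-labelled libraries lay above all wild type ones.

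Klk8 had 33.2, 35.2 and 33.0 FPKM in untreated KO-labelled skin, against 15.6, 13.8 and 10.8 FPKM in untreated wild type skin (2.52-fold, 1.32 ± 0.17, limma adjusted p = 0.0019). Klk10 had 43.1, 53.7 and 42.9 FPKM under the knockout label and 20.7, 16.7 and 15.8 FPKM in wild type (2.63-fold, 1.37 ± 0.18, limma adjusted p = 0.0018). In both genes the KO-labelled libraries stood clear of all wild type ones.

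Klk5 had 40.6, 41.2 and 36.2 FPKM under the knockout label and 25.1, 17.4 and 10.8 FPKM in wild type (2.22-fold, 1.20 ± 0.24, limma adjusted p = 0.011). Klk9 was 2.61-fold, Klk11 2.06-fold and Klk7 1.91-fold higher in KO-labelled skin, and Klk7 was nearest to the threshold (0.99 ± 0.25, limma adjusted p = 0.029). Klk12 had 11, 12 and 10 reads under the knockout label and 9, 1 and 9 in wild type, and its difference of 0.38 had a 95% interval from -0.05 to 0.82 (limma adjusted p = 0.24). Klk14 gave 5 reads over the 3 KO-labelled libraries and 3 over the wild type ones, too few to show a difference.

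Without untreated wild type replicate 3 the same 8 members were called, with smaller differences of 0.69 (Klk7) to 2.14 (Klk6), beside 20.4% of all genes called. The call of Klk7 ended in 6 of the 22 alternatives run (largest limma adjusted p 0.11), that of Klk11 in 3 (largest 0.061) and that of Klk5 in 1 (0.055).

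Several epidermal markers were higher as well. Of 6 granular layer markers 4 were higher in untreated KO-labelled skin, with sums of 846 to 1015 FPKM, against 249 to 446 FPKM in untreated wild type skin. The stress keratins were higher for 3 of 4, with sums of 110.2 to 184 FPKM under the knockout label and 58.8 to 106 FPKM in wild type. None of the 6 basal layer markers was called by limma (0 at an unadjusted p below 0.05), and 4 of 5 fibroblast markers were higher. The part of these differences in the kallikrein levels was not tested.

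After MC903 the direction was the other one. Of the 8 members that passed in untreated libraries 6 were lower in KO-labelled than in wild type skin, none was higher, and Klk9 and Klk10 were not called. Klk12 and Klk14, which passed through MC903 libraries, were called lower. Klk14 reached 0.5 FPKM in all wild type MC903 libraries (1.46, 1.16 and 0.843 FPKM). Under the knockout label it had 0.607, 0.305 and 0.255 FPKM. Its lower call is therefore partly fixed by the filter. The median log2 difference of the 8 was -0.96, against -0.028 over all genes tested, of which 52.1% were called, 26.1% lower and 25.9% higher.

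Klk5 was 2.56-fold lower. It had 23.1, 23.4 and 16.8 FPKM in KO-labelled skin after MC903 and 58.0, 53.9 and 50.4 FPKM in wild type skin after MC903 (log2 fold change -1.35 ± 0.24, limma adjusted p = 0.00073). Klk8 had 110.0, 128 and 101 FPKM under the knockout label and 235, 237 and 359 FPKM in wild type (2.46-fold lower, -1.27 ± 0.17, limma adjusted p = 0.00014). Klk11 had 47.2, 51.6 and 34.8 FPKM under the knockout label and 109, 92.9 and 125 FPKM in wild type (2.44-fold lower, -1.29 ± 0.22, limma adjusted p = 0.0007). Of the 8 members that passed in untreated libraries, only these 3 kept a call in every alternative run. Klk14 was called in the 21 alternatives that tested it (limma adjusted p up to 0.041), with the limit of the filter.

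Klk6 had 350.3, 372 and 278 FPKM in KO-labelled skin after MC903, against 718, 690 and 854 FPKM in wild type skin after MC903 (2.26-fold lower, -1.18 ± 0.28, limma adjusted p = 0.0050). Klk14 had 14, 7 and 6 reads under the knockout label and 31, 24 and 18 in wild type (-0.90 ± 0.20, limma adjusted p = 0.0034). Klk7, Klk12 and Klk13 were each lower by 1.65-fold to 1.66-fold, with log2 differences of -0.73 ± 0.25, -0.72 ± 0.20 and -0.75 ± 0.26 (limma adjusted p = 0.031, 0.010 and 0.033). Over all members, groups did not overlap, with KO-labelled libraries below, for 9 genes, Klk12 and Klk14 among them, and for 31.7% of all genes tested.

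Klk9 and Klk10 were the members without a call. Klk9 had 252, 254 and 178 FPKM under the knockout label and 349.5, 331 and 347 FPKM in wild type. Its difference of -0.61 had a 95% interval from -1.16 to -0.05 (limma adjusted p = 0.065). Klk10 had 205, 206 and 130.4 FPKM in KO-labelled skin and 178, 204 and 209 FPKM in wild type skin after MC903. Here the groups overlapped, with 2 KO-labelled libraries within the wild type range, and the difference of -0.15 had an interval from -0.54 to 0.24 (limma adjusted p = 0.49). That interval does not reach the differences of Klk5, Klk6, Klk8 and Klk11, which lay between -1.35 and -1.18.

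These differences depend on how libraries are scaled. Rescaling to TPM moved the median log2 difference of all genes by 0.29 in this comparison. It left 4 members called, Klk5, Klk8, Klk11 and, with the limit of the filter, Klk14, beside 9180 of the 17646 genes tested. Of all calls 73.7% were then higher in KO-labelled skin, against 49.8% with the deposited scaling. Klk7 and Klk13 were called in 15 and 13 of 22 alternatives. Scaling by total reads was among those that ended both calls (limma adjusted p = 0.062 and 0.069). Klk10 had the opposite sign under TPM scaling (0.14) and without KO-labelled MC903 replicate 3 (0.06).

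Epidermal markers of all kinds were lower under the knockout label after MC903: the 4 stress keratins, all 6 basal markers, 4 of 6 spinous and 4 of 6 granular markers. Stress keratins summed to 3069 to 4475 FPKM in KO-labelled skin and 11297 to 14643 FPKM in wild type skin, and granular markers summed to 322 to 536 FPKM in KO-labelled skin and 964 to 1660 FPKM in wild type skin. The 4 leukocyte and 5 fibroblast markers were all higher in KO-labelled skin. Leukocyte sums, mostly Lyz2, were 674 to 1071 FPKM there, against 279 to 337 FPKM in wild type. The part of all these markers in the kallikrein differences was not tested.

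**Figure D4:**
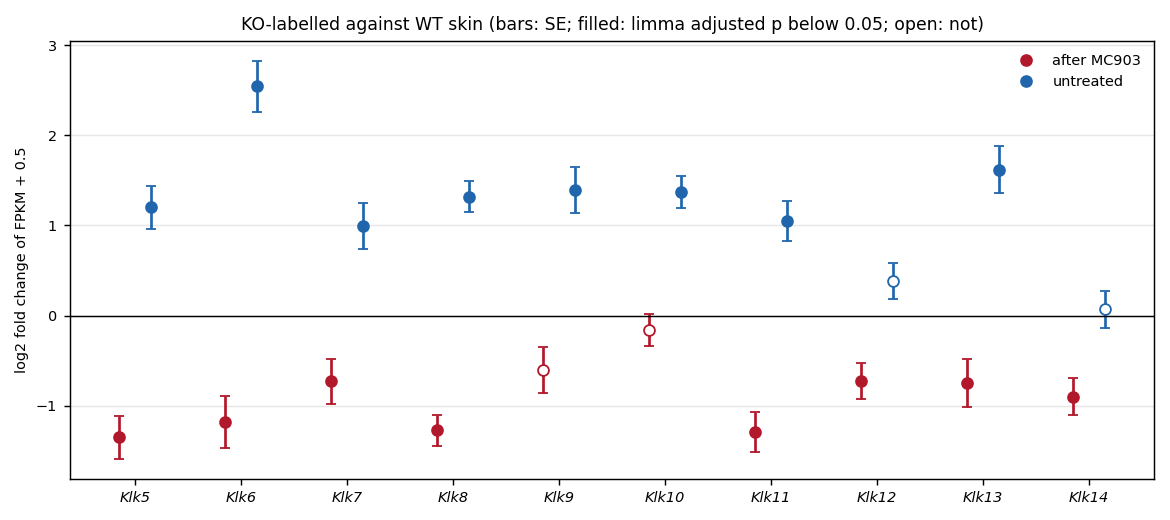
Log2 fold change of FPKM + 0.5 in KO-labelled against wild type skin for each kallikrein, with bars of 1 SE, after MC903 and in untreated skin (filled points were called by limma, open points were not). Untreated values lay above 0, up to 2.54 for Klk6, and MC903 values below 0, down to -1.35 for Klk5.

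The difference between the MC903 responses of the genotypes was tested itself. It was called for the 8 members that passed in untreated libraries, each with the smaller response or, for Klk5, the opposite one in KO-labelled skin, beside 39.7% of all genes called, 19.7% in this direction and 20% in the other. Klk12 and Klk14 were called in the same direction, with the limit of the filter. The median over the 8 was -2.35, against -0.0052 over all genes tested. Both a higher untreated level and a lower level after MC903 under the knockout label enter these values.

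Klk6 had the largest difference of response. Its log2 fold change was 4.77 in KO-labelled and 8.50 in wild type skin, a difference of -3.72 ± 0.40 (limma adjusted p = 0.00011). Klk8 and Klk5 had differences of -2.59 ± 0.25 (limma adjusted p = 6.3e-05) and -2.55 ± 0.34 (limma adjusted p = 0.00029). For Klk5 this is the genotype difference of -1.35 after MC903 minus that of 1.20 in untreated skin, so both states enter in like measure.

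Klk10 responded by 1.92 in KO-labelled and 3.45 in wild type skin, a difference of -1.52 ± 0.25 (limma adjusted p = 0.00093). This is its genotype difference of -0.15 after MC903 minus that of 1.37 in untreated skin, so the untreated level makes up most of it. Klk12 differed in response by -1.11 ± 0.28 (limma adjusted p = 0.010). The calls of Klk12 and Klk14 in this comparison ended under TPM scaling (limma adjusted p = 0.055 and 0.092) and in limma voom on recovered reads (0.058 and 0.14). The other 8 were called in every alternative. Without untreated wild type replicate 3 they had differences of -3.32 to -1.42, beside 45.7% of all genes called. Klk12 and Klk14 were called there too (-1.23 and -0.97), with the limit of the filter.

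Genes that act on the kallikreins or are cut by them were described from lists of 4 activators, 5 inhibitors and 8 substrates that passed the filter on low values. The activators were matriptase (St14) and prostasin (Prss8), membrane proteases of the epidermis, and the plasminogen activators Plau and Plat. After MC903 in wild type skin 3 of the 4 rose (median 1.31), and in KO-labelled skin 1 did, Plau (median 0.19). St14 was lower in KO-labelled than in wild type skin after MC903, at 5.77, 5.78 and 4.30 FPKM against 14.4, 12.3 and 11.8 FPKM (-1.21 ± 0.15, limma adjusted p = 7.0e-05). Its response to MC903 was -0.04 ± 0.15 in KO-labelled skin (limma adjusted p = 0.86) and 1.57 ± 0.15 in wild type skin (limma adjusted p = 4.7e-06), and the difference of -1.60 ± 0.21 was called (limma adjusted p = 0.00029). Prss8 likewise differed in response, by -2.00 ± 0.32 (limma adjusted p = 0.00073). Untreated, Prss8 was higher under the knockout label (1.23 ± 0.22, limma adjusted p = 0.0075), and after MC903 it was lower (-0.78 ± 0.22, limma adjusted p = 0.013). Prss8 thus had the directions of the called kallikreins in both states, but the share of all genes with both calls was not counted.

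Among the inhibitors, Spink5 had 182, 229 and 150.5 FPKM in KO-labelled MC903 skin and 248, 259 and 312 FPKM in wild type MC903 skin. In untreated skin it had 73.7, 76.6 and 70.1 FPKM under the knockout label and 57.6, 37.2 and 25.1 FPKM in wild type. Spink5 was higher after MC903 in both genotypes, by 1.32 ± 0.25 in KO-labelled skin (limma adjusted p = 0.0012) and by 2.83 ± 0.25 in wild type skin (limma adjusted p = 2.5e-06). The genotypes differed in untreated skin (0.95 ± 0.25, limma adjusted p = 0.033), while after MC903 the difference of -0.56 ± 0.25 was not called (limma adjusted p = 0.081). Spink12 rose by 3.82 ± 0.28 in KO-labelled and by 3.75 ± 0.28 in wild type skin, and the difference of 0.07 ± 0.39 was not called (limma adjusted p = 0.90). Serpina12, which encodes vaspin, an inhibitor of Klk7, rose in wild type skin (1.35 ± 0.27, limma adjusted p = 0.0010) and was not called in KO-labelled skin (0.26 ± 0.27, limma adjusted p = 0.44). Over the list 2 of 5 rose in KO-labelled and 3 of 5 in wild type skin, and limma called none of the 5 between genotypes after MC903 (2 at an unadjusted p below 0.05). The difference of response was called for 2 of the 5, both lower in KO-labelled skin, beside 39.7% of all genes tested.

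Relative to Spink5, summed kallikrein RNA was higher and Klk5 RNA lower in MC903 skin than in untreated skin of either genotype. The summed kallikrein FPKM was 9.47 and 11.5 times that of Spink5 in KO-labelled and wild type MC903 skin, and 4.34 and 3.73 times in untreated skin of the same genotypes. The ratio of Klk5 to Spink5 was 0.114 ± 0.013 in KO-labelled and 0.201 ± 0.037 in wild type MC903 skin, against 0.536 ± 0.017 and 0.445 ± 0.020 in KO-labelled and wild type untreated skin (SD, n = 3). No library of 1 group overlapped another in that ratio, and no test was made of it. RNA ratios say nothing of enzyme activity.

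**Figure D5:**
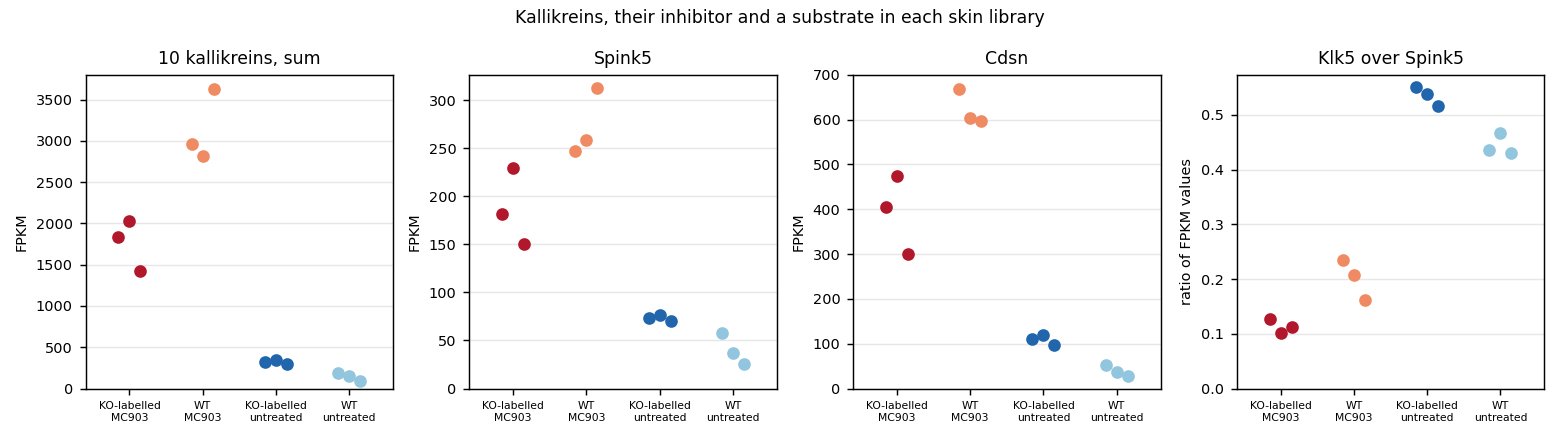
FPKM of the 10 kallikreins summed, of Spink5 and of Cdsn, and the ratio of Klk5 to Spink5, in each skin library (points) of the 4 groups. The first 3 were highest in wild type MC903 skin, whereas the ratio was lowest in KO-labelled MC903 skin, at 0.102 to 0.127.

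Of the 8 substrates 5 rose and 2 fell with MC903 in KO-labelled skin (median 1.03), and 6 rose and none fell in wild type skin (median 2.72). Cdsn, which encodes corneodesmosin, the corneodesmosome protein that Klk5 and Klk7 cut, had 405, 475 and 301 FPKM in KO-labelled MC903 skin and 669, 604 and 596 FPKM in wild type MC903 skin (-0.69 ± 0.22, limma adjusted p = 0.022). In untreated skin it had 111, 119 and 96.1 FPKM under the knockout label and 53.2, 35.8 and 27.5 FPKM in wild type (1.52 ± 0.22, limma adjusted p = 0.0030). Cdsn therefore had the same directions as the called kallikreins in both states. These directions were not particular to it. Granular markers were called higher for 4 of 6 in untreated skin and lower for 4 of 6 after MC903. For stress keratins this was 3 of 4 and 4 of 4. The share of all genes with both calls was not counted.

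F2rl1, the PAR2 gene, fell with MC903 in KO-labelled skin (-0.71 ± 0.21, limma adjusted p = 0.015) and rose in wild type skin (0.70 ± 0.21, limma adjusted p = 0.012), the directions of Klk5. These directions were not particular to the 2 genes. The epidermal markers Lor (-2.05 and 1.62), Sbsn (-1.46 and 1.41) and Col17a1 (-0.77 and 0.67) were called likewise in KO-labelled and wild type skin. Others, such as Krt14 (1.62 and 3.80), rose in both. The share of all genes with opposite calls was not counted. The mean of F2rl1 was 4.35 FPKM in KO-labelled and 9.35 FPKM in wild type MC903 skin (-1.02 ± 0.21, limma adjusted p = 0.0018). Flg, which encodes the barrier protein filaggrin, was lower in KO-labelled skin after MC903 (-1.31 ± 0.19, limma adjusted p = 0.00022). Il1b, a cytokine of inflammation, was the substrate with the other direction, higher in KO-labelled than in wild type skin after MC903 (1.53 ± 0.46, limma adjusted p = 0.015). In all, 4 substrates were lower and 1 higher in that comparison, with a median of -0.50.

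The remaining 16 kallikrein genes on the list, the mouse glandular kallikreins and their relatives, did not pass the filter, and none exceeded 0.822 FPKM in a skin library. Around the cluster, within 100 kb of its outermost gene starts or between them, 14 other genes have their start, and 5 passed the filter. In untreated skin limma called none of the 5 between genotypes (0 at an unadjusted p below 0.05). After MC903 Siglece, a leukocyte lectin gene, was higher in KO-labelled skin (1.20 log2 units) and the other 4 were lower. In that comparison 26.1% of all genes were called lower and 25.9% higher. Of the 4, Gm44814 lies within Klk13 on the same strand, and 2310002F09Rik is the antisense gene described above. With MC903 all 5 were called higher in wild type skin and 3 in KO-labelled skin, beside 32.6% and 25% of all genes.

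Over the 12 libraries the members went together on the log2(FPKM + 0.5) scale, with a median Pearson correlation of 0.96 over their 45 pairs, as the same 4 groups lie behind every point. The correlations of Klk5 with the others were the lowest, from 0.37 with Klk12 to 0.67. The genes outside the cluster most like the mean standardised profile of the members were Tmem40 (0.997), Epn3 (0.996), Cnfn (0.996), Dusp14 (0.996) and Adgrg1 (0.994). Cnfn encodes cornifelin, a protein of the cornified envelope, and averaged 512 and 1045 FPKM in KO-labelled and wild type MC903 skin and 90.7 and 38.1 FPKM in untreated skin of the same genotypes. Klk7 was most like Casp14, the caspase of terminal differentiation (0.995), Klk6 like Slc5a8 (0.998) and Klk13 like Slc9a3r1 (0.998) and Rptn, the repetin gene (0.998). The genes nearest to Klk8, Klk9, Klk10 and Klk11 were Epn3 (0.991), Glrx (0.998), Tmem229b (0.991) and Tmprss13 (0.995). Klk12 was most like Rack1 (0.997) and Eif4a1 (0.996), and Klk14 like Rundc3a (0.989) and Eif2b5 (0.982). Klk5 was most like Anxa9 (0.990) and Fam83f (0.974). Anxa9 averaged 14.3 and 33.4 FPKM in KO-labelled and wild type MC903 skin and 23.6 and 11.9 FPKM in untreated skin, the same order of groups as Klk5.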

How the data were processed

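Gene-level FPKM values of 12 skin libraries were used as the authors deposited them. Per the submitters' processing notes, reads were mapped to mm10 and counted with featureCounts. The sources used here do not give the aligner, the annotation release or the FPKM tool. Per the labels' protocols, poly-A RNA was copied with random hexamers and strand was not kept. FPKM times gene length gave whole reads in 100% of values (tolerance 0.01) after 1 factor per library.

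Linear models were fitted with limma 3.58.1 in R 4.3.3 to log2(FPKM + 0.5) of genes with at least 0.5 FPKM in at least 3 libraries. The model had 4 group means and 8 residual degrees of freedom, and eBayes with a trend. Tests were two-sided with Benjamini-Hochberg adjustment over all genes tested. The script was tested on simulated data. Alternatives were other pseudocounts and filters, TPM and total-read scaling (the last added after the data were seen), robust moderation, limma voom on recovered reads, a replicate block, fits of single contrasts and leaving out each library. All 10 members are named in every comparison, and genes of a pathway list were named by adjusted p, up to 4 a list. Cdsn after MC903 and F2rl1 were named besides, chosen after their values were seen. The members, the lists and these tests were chosen with earlier results of these data known. The 3 dorsal root ganglion samples of the series were not analysed here. Figures and other steps used Python 3.11.15 with pandas 2.3.3, scipy 1.17.1 and matplotlib 3.10.9.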

Additional observations from a re-analysis of the deposited data

Results flagged for a closer look

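A test of the difference itself called the response to MC903 different between KO-labelled and wild type skin for 8 kallikreins. These are the members that passed the filter on low values in untreated libraries. The log2 differences of response, KO-labelled minus wild type, were -2.55 for Klk5, -3.72 for Klk6, -1.72 for Klk7, -2.59 for Klk8, -2.00 for Klk9, -1.52 for Klk10, -2.34 for Klk11, -1.11 for Klk12, -2.37 for Klk13 and -0.97 for Klk14. Over the 8 the limma adjusted p ranged from 6.3e-05 for Klk8 to 0.0034 for Klk7. In this comparison 39.7% of all genes tested were called in either direction. Klk12 and Klk14 passed the filter on low values only through MC903 libraries, so their differences are given as a description. Their limma adjusted p of 0.010 and 0.021 rose to 0.055 and 0.092 under TPM scaling. In limma voom on recovered reads they were 0.058 and 0.14. In Klk5 the libraries of the genotypes moved in opposite directions.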

How the results depend on the processing

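Of 50 results (10 members in 5 comparisons) 37 kept their direction and their side of the threshold in every alternative run. Among 1082 alternative values 38 lost a call, 5 gained one and 3 had the opposite sign. The opposite signs, none of a called result, were those of Klk14 in untreated skin without KO-labelled untreated replicate 2 (-0.00091, as reported 0.07, range without single libraries -0.00091 to 0.16) and of Klk10 after MC903 under TPM scaling (0.14) and without KO-labelled MC903 replicate 3 (0.064, as reported -0.15, range without single libraries -0.27 to 0.064).

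In untreated skin, fitting only the groups compared called 5 members in place of 8 and 909 genes in place of 2064. TPM scaling called 4 members in place of 8 between the genotypes after MC903, and 9180 genes in place of 9187. Leaving out 1 library at a time gave 10 to 10 members for MC903 in wild type skin, 9 to 10 for MC903 in KO-labelled skin, 6 to 8 in untreated skin, 6 to 9 after MC903 and 9 to 10 for the difference of response. Over all genes these ranges were 10071 to 11186, 6726 to 9285, 714 to 3561, 7789 to 9972 and 5737 to 8000. The count in untreated skin was lowest without KO-labelled replicate 2 (714) and was 811 without replicate 1 and 1156 without replicate 3 of that group, 1156 without wild type replicate 2 and 3561 without wild type replicate 3. The cause was not tested.

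TPM scaling moved the median log2 change of all genes by -0.47 for MC903 in wild type skin, -0.19 for MC903 in KO-labelled skin, 0.01 in untreated skin, 0.29 after MC903 and 0.28 for the difference of response. The share of calls that were higher was then 26.7%, 33.5%, 66.8%, 73.7% and 72.2%, against 51.8%, 52.1%, 61.1%, 49.8% and 50.3% with the deposited scaling. Scaling by total reads gave 40.0%, 45.2%, 49.7%, 57.4% and 61.9%. Klk9 after MC903, not called in the report, was called in 5 of 22 alternatives.

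The labels give the groups the same replicate numbers. Deviations of same-numbered libraries from their group means correlated over 0.1 in 3 of 18 pairs (-0.13 to 0.17), so the numbers were not taken as pairs. With a replicate block 10, 10, 8, 9 and 10 members were called in the 5 comparisons, in the order above. Beside them 11176, 8471, 2124, 9304 and 7046 of all 17646 genes tested were called. Depth limits Klk14, with 0 to 31 reads per library, and Klk12 in untreated skin, with 1 to 12.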
